A study of Mus musculus with 24 samples.

Results

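Lymphoid progenitors (LPs) in which Ctcf was targeted by CRISPR/Cas9 were compared with LPs that carried control guides. The comparison rests on 6 of the 24 QuantSeq libraries of the series, which are the 3 libraries labelled sgCTCF and the 3 labelled sgControl in the second experiment. QuantSeq sequences the 3′ end of each polyadenylated RNA, and levels are given here as CPM, the reads of a gene scaled to the same total of reads on genes in every library. The same experiment holds 3 libraries each of LPs with sgCbfb or sgMed12, and the first experiment holds LPs and Phase 1 cells, the earliest Notch-stimulated T progenitors, which here are the same LPs cultured on OP9 cells that express the Notch ligand DLL4, with sgControl or sgCbfb.

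All of these cells came from a single kind of line, which limits what the groups can stand for. The LPs were Ebf1-deficient, were derived from fetal liver of Rosa26-Cas9 knock-in mice, and were kept with SCF, Flt3L and IL-7 on OP9 stromal cells that had been treated with mitomycin C. Without Ebf1 such progenitors do not go on to become B cells. In the second experiment no Notch ligand was supplied. Guides were delivered with a retroviral vector that also encodes human NGFR, a pool of 3 vectors was used for each gene, and hNGFR+CD45+ cells were sorted 5 days after transduction. The sgControl vectors carried guides to luciferase, so Cas9, the vector, the sort and the loss of Ebf1 were shared by both groups. The sort selects transduced cells and not edited ones, so each sgCTCF library can hold cells in which Ctcf was still intact. Whether the 3 libraries of a group came from separate lines or animals is not given in the labels. The p-values rest on the spread between libraries within groups, pooled over the 4 groups of the second experiment.

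CTCF is a zinc finger protein that binds a long, GC-rich DNA motif and halts the cohesin ring as it extrudes chromatin loops. The anchors it forms bound topologically associating domains, and enhancers on one side of an anchor contact promoters on the other side less often. In haematopoietic cells CTCF is known for its part in antigen receptor locus folding, in the HoxA cluster and at imprinted genes, and RUNX1, the partner of CBFβ, is known to share many sites with it. The comparison addresses which genes of an unstimulated progenitor change when CTCF is targeted, and whether those include genes that Notch stimulation turns on.

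The targeted gene was lower in the sgCTCF libraries, though most of its 3′ reads remained. Ctcf (GRCm38, chr8:105636568-105682922, plus strand) was at 404, 356 and 413 CPM in the sgControl libraries and at 330.3, 272 and 314 CPM in the sgCTCF libraries. The groups did not overlap, the sgCTCF mean was 78.2% of the sgControl mean, and the difference was -0.36 ± 0.10 (log2 fold change ± SE) with an adjusted P of 0.021 in limma. A 3′ read lies away from a cut in the coding sequence, so these reads check the label only in part and do not measure the protein. The study checked depletion of the protein by immunoblot of hNGFR+ cells, sooner after transduction than the RNA was taken. Ctcfl, the germline paralogue, had no read in any of the 6 libraries.

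The 6 libraries were similar in depth and quality. They held between 3385934 and 4326782 reads on genes, so 1 read was worth 0.231 to 0.295 CPM. Mitochondrial genes took 7.5% to 8.15% of reads in these 6 libraries. The most abundant gene, CT010467.1, took 7.87% to 8.94% of reads in the sgControl libraries and 9.51% to 11.2% in the sgCTCF libraries, and with that gene and the mitochondrial genes left out of the total 291 genes were called higher and 74 lower. Each library had a mean correlation of 0.980 to 0.985 with its own group and of 0.952 to 0.963 with the other, and none stood apart.

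More genes rose than fell. A call required 3 things of a gene, namely an adjusted P under 0.05, group means over 2-fold apart and more than 10 CPM on average in 1 of the groups. Of 13177 genes tested, 238 were called higher with sgCTCF (1.81% of the genes tested) and 82 were called lower (0.622%), or 2.43% in either direction. At an adjusted P under 0.05 alone, 808 genes were higher (6.13%) and 553 lower (4.20%). The rises were also larger, since 59 of the 238 exceeded 4-fold and 16 exceeded 8-fold, whereas 3 of the 82 falls exceeded 4-fold. Many rises began from very little RNA. In 76 of the 238 genes the sgControl mean was under 5 CPM, and in 4 genes no sgControl library had more than 3 reads. The median log2 ratio was 1.48 over the genes called higher and -1.19 over those called lower. Of all genes called, 231 of the higher and 80 of the lower ones were protein coding. In bulk RNA a fall in the number of cells of a type and a fall in RNA per cell cannot be told apart, and likewise for a rise.

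**Figure D1:**
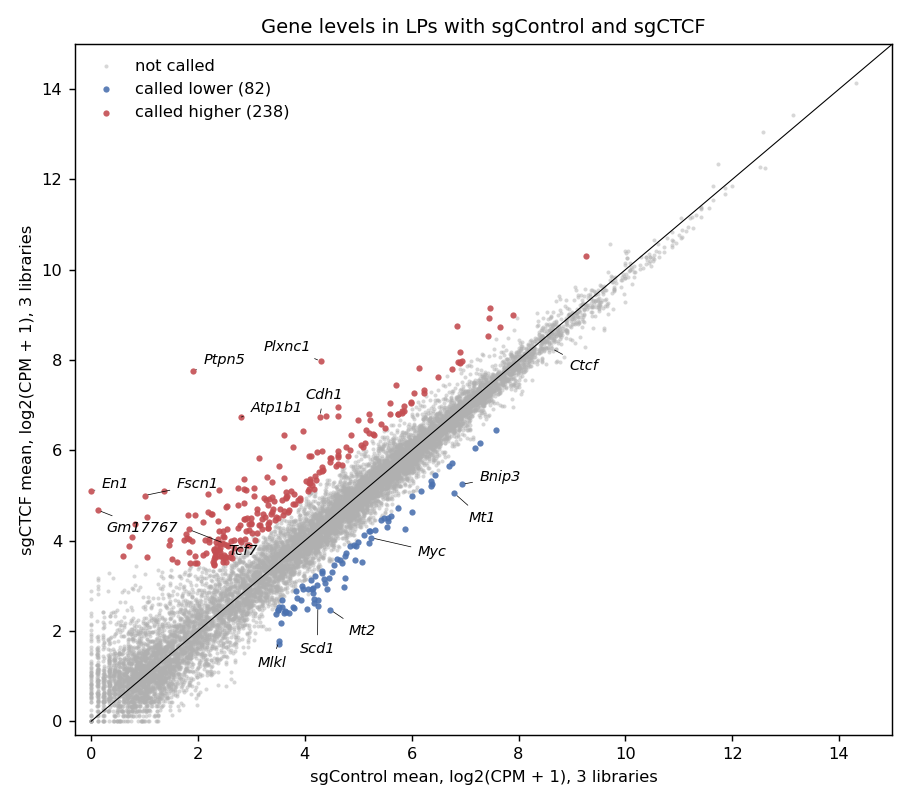
Mean level of each tested gene in the 3 sgControl libraries (x axis) against the 3 sgCTCF libraries (y axis), both as log2(CPM + 1), with genes called higher and lower in colour. The 238 genes called higher reach farther from the diagonal than the 82 called lower, and Plxnc1 and Ptpn5 have the highest sgCTCF means of the 16 genes that rose over 8-fold.

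Where each of the 6 libraries held at least 1 read of the gene, Ptpn5 rose most. It encodes a tyrosine phosphatase known chiefly from neurons, where it dampens MAP kinase signalling. Ptpn5 (GRCm38, chr7:47077795-47133684, minus strand) was at 3.69, 2.07 and 2.44 CPM with sgControl and at 219, 239 and 188 CPM with sgCTCF. Every sgCTCF library was far above every sgControl library, the means differed 78.9-fold, and the adjusted P in limma was 1.19e-10. It was at a mean of 0.262 CPM with sgCbfb and 5.23 CPM with sgMed12, and the direct contrasts with these groups gave log2 fold changes of 7.44 (adjusted P = 5.43e-14, limma) and 5.35 (adjusted P = 2.78e-10).

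En1 and Gm17767 were silent, or almost so, in the control libraries. En1 (GRCm38, chr1:120602418-120607992, plus strand) encodes a homeodomain factor known for patterning of the midbrain and limb. It had no read in any sgControl library and was at 34.9, 38.2 and 26.4 CPM with sgCTCF, which is at least 41.3-fold higher when 3 reads per library are taken as the floor. No read of En1 was found in the sgCbfb or sgMed12 libraries or in the LP and Phase 1 sgControl libraries of the first experiment. Gm17767, a predicted gene, was at 0.263, 0 and 0 CPM with sgControl and 31.4, 25.1 and 17.3 CPM with sgCTCF, or at least 30.6-fold higher. Olfr523, an olfactory receptor gene, was at 0.791, 0.590 and 0.730 CPM with sgControl and 14.8, 21.4 and 11.8 CPM with sgCTCF, or at least 19.9-fold higher. For all 3 genes the sgCTCF libraries lay above every control library.

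Other large rises began from low or moderate levels. Fscn1, which encodes the actin-bundling protein fascin, was at 0.791, 1.48 and 0.730 CPM with sgControl and 34.9, 34.2 and 23.8 CPM with sgCTCF (adjusted P = 5.22e-08, limma). Nsg2, a neuronal endosomal protein, was at 0.263, 0.590 and 1.46 CPM and 9.93, 27.8 and 21.5 CPM (adjusted P = 7.22e-06, limma). The sgCTCF libraries were the higher ones in both cases, and the lowest of them exceeded the highest control by several times. Uchl1, a ubiquitin hydrolase abundant in neurons, went from 0.791, 1.18 and 1.22 CPM to 27.6, 18.9 and 19.4 CPM. Atp1b1, the β subunit of the sodium pump, went from 8.97, 7.38 and 1.70 CPM to 118, 112 and 87.6 CPM. Plxnc1, a semaphorin receptor, was already expressed in the controls at 17.9, 22.2 and 16.1 CPM and reached 259.5, 270.4 and 219.8 CPM. Its log2 fold change of 3.67 ± 0.17 had the smallest adjusted P of these genes (2.37e-13, limma). Blnk (given with the B-lineage genes below), Fam49a, Clmn, Loxl2 and Hsd11b1 completed the 12 largest rises among genes with reads in every library. Their log2 ratios were 4.44, 4.39, 3.43, 3.17 and 3.14, with adjusted P values in limma of 4.21e-05 or less.

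Mt1 and Mt2, metallothioneins that bind zinc and copper, were among the 12 largest falls. Mt1 (GRCm38, chr8:94179082-94180327, plus strand) was at 121, 119 and 91.3 CPM with sgControl and 34.4, 29.2 and 32.6 CPM with sgCTCF, a 3.45-fold fall (log2 ratio -1.78, adjusted P = 5.96e-09, limma). Mt2, whose start lies 6.4 kb from that of Mt1, was at 25.05, 25.1 and 13.6 CPM and 5.90, 5.85 and 1.85 CPM (log2 ratio -2.23, adjusted P = 7.61e-05, limma). The fall of Mt2 was the largest of the called genes, and Tifa, Mlkl, Drc7 and Scd1 fell more than Mt1. All sgCTCF values of both genes were below all control values. The transcripts of this pair are similar, so reads could have been exchanged between them. Against sgCbfb the direct log2 fold changes were -1.97 for Mt1 (adjusted P = 6.01e-11, limma) and -1.92 for Mt2 (adjusted P = 5.53e-05), and against sgMed12 they were -1.28 (5.35e-07) and -1.23 (0.00781). No other member of the metal response list of 10 tested genes was called.

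The other large falls were in genes of unlike function. Mlkl, the executor of necroptosis, was at 10.3, 10.04 and 10.96 CPM with sgControl and 2.42, 1.11 and 3.70 CPM with sgCTCF (adjusted P = 1.94e-04, limma). Scd1, a fatty acid desaturase, was at 19.8, 17.7 and 16.3 CPM and 2.15, 7.80 and 4.62 CPM (adjusted P = 7.12e-04, limma). In both, the highest sgCTCF library was below the lowest control. Tifa, an adaptor of NF-κB signalling, went from 10.3, 12.4 and 8.52 CPM to 2.68, 1.67 and 2.54 CPM, and its call was lost without the second sgControl library, since both group means were then under 10 CPM (log2 ratio -2.03). Drc7, Bmyc, Tstd3, Ajap1, Selenom and R3hcc1 had log2 ratios between -1.89 and -1.67.

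**Figure D2:**
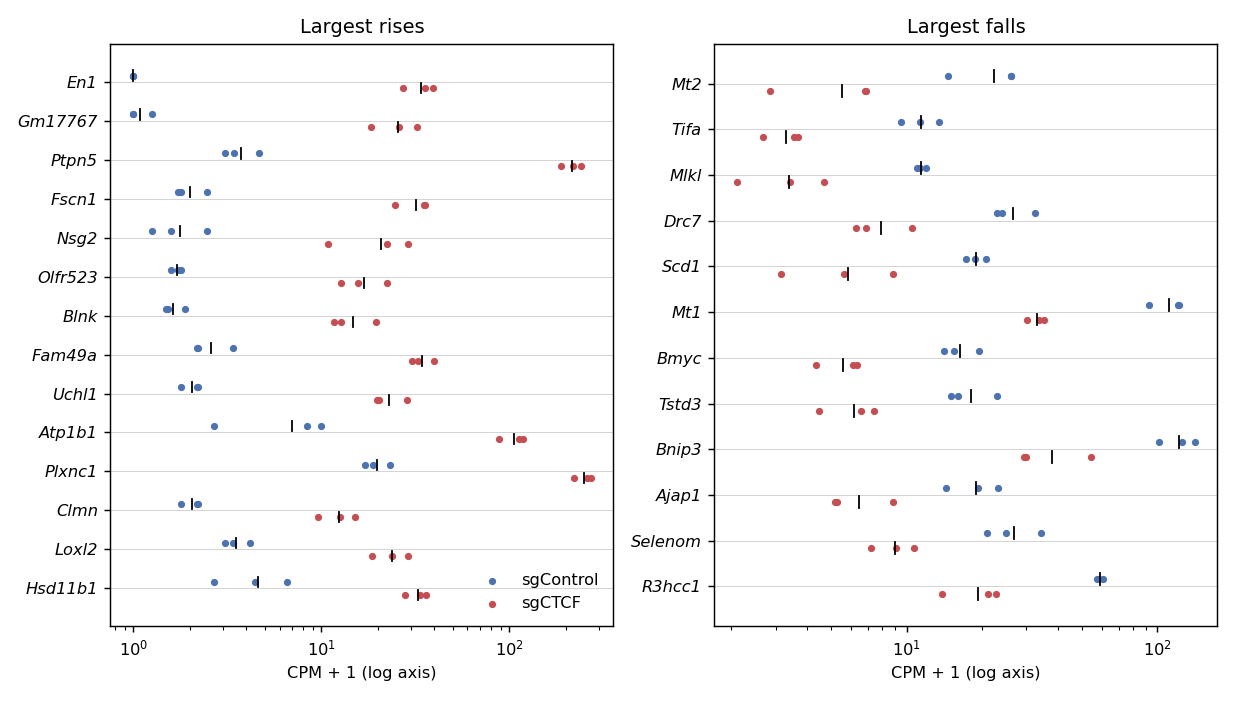
CPM + 1 on a log axis in each sgControl and sgCTCF library for the 14 genes with the largest rises (En1 and Gm17767 among them) and the 12 with the largest falls, with a black tick at each group mean. In every gene drawn the 3 sgCTCF points lie on one side of the 3 sgControl points, and the gap is widest for Ptpn5 and En1.

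Genes of glycolysis and of the response to low oxygen were lower as a group. Of 26 tested genes, 7 were called lower (26.9%, against 0.622% of all tested genes) and 1 higher, and 18 had an adjusted P under 0.05 in the lower direction (69.2%, against 4.20% of all tested genes). The median log2 fold change of the list was -0.76, against -0.02 over all tested genes. Its summed level was between 4221 and 4715 CPM in the sgControl libraries and between 2505 and 3051 CPM in the sgCTCF libraries. Between 14 and 17 members had an adjusted P under 0.05 in the lower direction when 1 of these 6 libraries was left out. The calls, which also need a 2-fold difference, varied more, with 3 lower without the first sgCTCF library, 10 without the third sgCTCF library and 5 without the second sgControl library.

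Bnip3, a target of hypoxia-inducible factor that acts in mitophagy, fell most in this list. It was at 124, 139.7 and 100.3 CPM with sgControl and 28.4, 28.96 and 53.4 CPM with sgCTCF, with the third sgCTCF library the highest of its group and still below every control (log2 fold change -1.74 ± 0.23, adjusted P = 9.79e-06, limma). Of the enzymes at the committed step of glycolysis, Pfkl was at 144, 164 and 155 CPM and 49.6, 72.1 and 90.1 CPM, and Pfkp at 62.5, 109 and 74.03 CPM and 31.4, 33.97 and 46.9 CPM. Both were called lower with non-overlapping groups, though Pfkl lost the 2-fold difference without the first sgCTCF library (log2 ratio -0.93) and Pfkp without the second sgControl library (-0.87). Pdk1, which holds pyruvate back from the mitochondrion, was at 69.1, 95.4 and 80.8 CPM and 37.03, 37.03 and 43.2 CPM, and it also fell under the 2-fold limit without the second sgControl library (-0.94).

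The more abundant enzymes of the pathway were lower by less than 2-fold. Ldha, lactate dehydrogenase, was at 798, 731 and 805 CPM with sgControl and 402, 383 and 461 CPM with sgCTCF (adjusted P = 4.81e-06, limma). Aldoa, an aldolase, was at 717, 869.5 and 739 CPM and 358, 391 and 475 CPM (adjusted P = 1.60e-05, limma). The sgCTCF libraries were all below the controls for both. Hk2, Tpi1, Gapdh and Eno1 had log2 fold changes of -0.87, -0.60, -0.66 and -0.80, each with an adjusted P of 0.00224 or less in limma. Pgk1 was called lower at -1.16 ± 0.29 but not without the first sgCTCF library (adjusted P = 0.0982, limma). Gapdh, Pgk1 and Eno1 have many near-identical pseudogenes, so their levels are uncertain. Ankrd37 and P4ha1 were the remaining calls, and both were lost without the first sgCTCF library, with log2 ratios of -1.12 and -0.91 and adjusted P values of 0.0644 and 0.00471. P4ha1 was also lost without the third sgControl library (log2 ratio -0.98).

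Vegfa, the angiogenic growth factor and a further target of hypoxia-inducible factor, went the other way. It was at 113, 108 and 100.1 CPM with sgControl and 218, 233 and 217 CPM with sgCTCF, with all sgCTCF libraries above all controls (adjusted P = 4.78e-05, limma). Against the same sgControl libraries the median log2 fold change of the list was -0.61 with sgMed12 and -0.07 with sgCbfb. Set against sgMed12 directly, Bnip3 and Pfkl differed by 0.08 (adjusted P = 0.83, limma) and -0.07 (0.78), neither of which passed, and against sgCbfb they differed by -1.55 (9.94e-06) and -1.04 (6.03e-06).

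Of 24 tested genes of sterol and fatty acid synthesis 12 were lower at an adjusted P under 0.05 in limma (50%, against 4.20% of all tested genes). All 24 had a negative log2 fold change on the deposited scale, and the median was -0.60. Scd1 was the only call. Hmgcs1, an early enzyme of cholesterol synthesis, was at 295, 279 and 221 CPM with sgControl and 164, 148 and 162 CPM with sgCTCF (adjusted P = 8.14e-05, limma), and its groups did not overlap. Sqle, squalene epoxidase, had a log2 fold change of -0.55 ± 0.16, while Insig1 at -0.69 ± 0.23 did not pass (adjusted P = 0.0575, limma). With 1 of the 6 libraries left out, between 8 and 13 members were under 0.05. The median of the same genes was -0.27 with sgCbfb and -0.29 with sgMed12.

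The integrated stress response list held 21 tested genes, of which 8 were lower at an adjusted P under 0.05 (38.1%, against 4.20% of all tested genes) and none higher (median -0.34). Most of those that passed act in amino acid supply or tRNA charging. Asns, asparagine synthetase, was at 55.9, 74.1 and 59.9 CPM with sgControl and 25.5, 20.05 and 25.6 CPM with sgCTCF, with no overlap (adjusted P = 9.93e-07, limma). Psat1, Shmt2, Mthfd2, Slc7a5, Cars and Nars passed without reaching 2-fold. Stc2 was called (-1.20 ± 0.31) but lost the call without the second sgControl, the second sgCTCF or the third sgCTCF library (adjusted P = 0.0552, 0.0547 and 0.0509, limma). The transcription factors that define the response did not pass. Atf4 was at 476, 396 and 455 CPM and 432, 355 and 400.1 CPM (adjusted P = 0.615, limma), and Ddit3 had a log2 fold change of 0.35 ± 0.22 (adjusted P = 0.377).

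**Figure D3:**
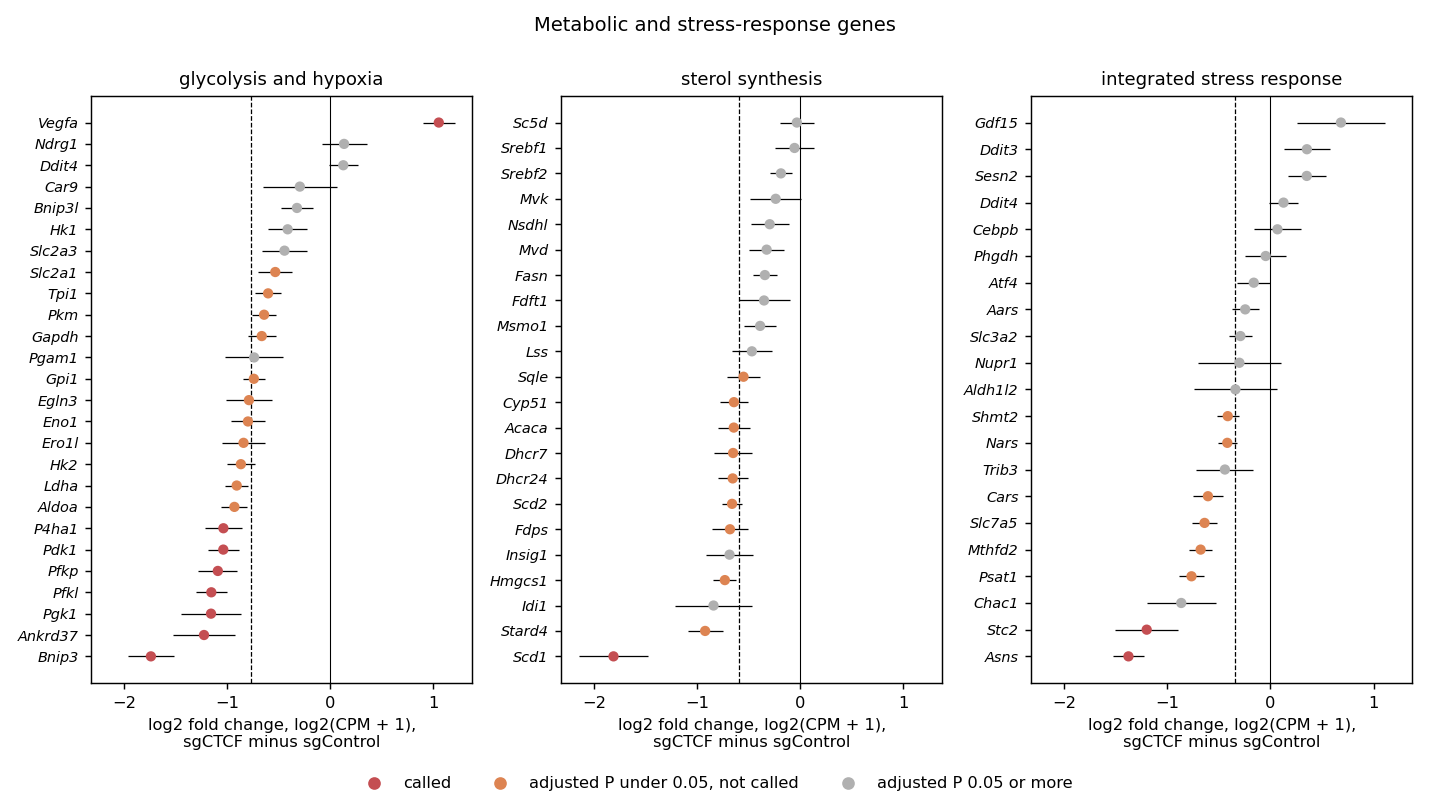
Log2 fold change of sgCTCF over sgControl (limma, points, with 1 SE as bars) for tested genes of the glycolysis and hypoxia, sterol synthesis (a few members not drawn) and integrated stress response lists, with called genes in red, genes with an adjusted P under 0.05 but not called in orange, the others in grey and the median of the whole list as a dashed line. The medians are -0.76, -0.60 and -0.34, and Vegfa is the single called gene to the right of 0.

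Myc and its partners moved in opposite directions. Myc, a driver of growth and of glycolytic genes, was at 39.03, 31.01 and 40.4 CPM with sgControl and 9.39, 16.98 and 20.8 CPM with sgCTCF (log2 fold change -1.23 ± 0.22, adjusted P = 3.87e-04, limma), and was just under 2-fold without the first sgCTCF library (log2 ratio -0.96). Mxd1, which competes with MYC for MAX, was at 24, 41.05 and 19.7 CPM and 85.6, 87.99 and 66.1 CPM (adjusted P = 2.05e-05, limma). Max itself was at 129.8, 113 and 122 CPM and 265, 249.8 and 238 CPM (adjusted P = 5.75e-05, limma), with a log2 ratio of 0.99 without the second sgControl library. The sgCTCF libraries were below the controls for Myc and above them for Mxd1 and Max. Among 25 tested genes of Myc and ribosome biogenesis, those were the only calls, 6 were lower at an adjusted P under 0.05 (24%, against 4.20%), and the median was -0.26.

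Of 31 tested replication and mitosis genes 7 were lower at an adjusted P under 0.05 (22.6%, against 4.20% of all tested genes), none was called and 30 had a negative log2 fold change (median -0.27, against -0.35 with sgMed12 and -0.09 with sgCbfb). Mcm2, a subunit of the replicative helicase, was at 277, 300.4 and 287 CPM with sgControl and 213, 227 and 247 CPM with sgCTCF (adjusted P = 0.0425, limma). Between 3 and 6 members were under 0.05 when 1 of the 6 libraries was left out. At an unadjusted P under 0.05 limma gave 16, and neither edgeR nor DESeq2 made a call.

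In the list of p53 targets 9 of 28 tested genes were higher at an adjusted P under 0.05 (32.1%, against 6.13% of all tested genes) and 1 lower (3.57%, against 4.20%), with a median of 0.46. Without 1 of the 6 libraries between 4 and 9 were higher. Fas, the death receptor, was at 3.16, 2.95 and 2.44 CPM with sgControl and 12.9, 10.3 and 11.6 CPM with sgCTCF (adjusted P = 0.0016, limma). Trp53inp1, a p53-induced stress protein, was at 64.9, 58.2 and 34.3 CPM and 116, 112 and 106 CPM (adjusted P = 1.89e-04, limma), and its log2 ratio was 0.86 without the third sgControl library, whose value was the lowest. The sgCTCF libraries were the higher ones for both. The direct p53 targets that are most widely used as markers rose less, Cdkn1a by 0.42 ± 0.12 and Mdm2 by 0.46 ± 0.14 on the log2 scale (adjusted P = 0.0274 and 0.0431, limma).

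Of 22 tested Bcl2 family and death genes 3 were called higher (13.6%, against 1.81%), Fas and the BH3-only genes Bcl2l11, which encodes Bim, and Bmf, and 1 was called lower, Mlkl (median 0.20). Bcl2l11 was at 119, 134 and 104 CPM with sgControl and 251, 276 and 211 CPM with sgCTCF, with every sgCTCF library higher (adjusted P = 1.26e-06, limma). Bmf was at 14.8, 11.2 and 8.77 CPM and 27.9, 33.1 and 28.2 CPM (adjusted P = 0.00192, limma). The log2 ratio of Bcl2l11 was 0.96 without the third sgControl library and 0.96 without the second sgCTCF library, both just under the 2-fold limit. Bcl2, which holds these proteins in check, was at 579, 490.3 and 589 CPM and 462, 464 and 461 CPM and did not pass (adjusted P = 0.154, limma).

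The question of the study concerns genes that Notch stimulation turns on. To choose these without the libraries compared here, Phase 1 sgControl was set against LP sgControl in the first experiment by the same rule, which called 218 genes higher in Phase 1 (1.65% of 13239) and 231 lower (1.74%). Of the 218, 201 were tested in the second experiment. With sgCTCF 17 of these 201 were called higher (8.46%, against 1.81% of all tested genes) and 2 lower (0.995%, against 0.622%). The median log2 fold change of the 201 was 0.24. At an adjusted P under 0.05 alone 48 of them were higher (23.9%) and 14 lower (6.96%). Of the 231 genes lower in Phase 1, all tested here, 20 were called higher (8.66%) and 7 lower (3.03%), 37 (16.02%) and 24 (10.4%) were higher and lower at an adjusted P under 0.05 alone, and the median was 0.01. The shares of the Phase 1-higher and Phase 1-lower genes were not tested against each other. Genes called higher were more frequent both among the genes higher in Phase 1 and among those lower in Phase 1 than among the 8222 tested genes with a mean over 10 CPM, of which 1.82% were called higher, and that difference was not tested either.

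Tcf7 and Hes1 were the best known of the 17. Tcf7, which encodes TCF1, the factor that starts the T-cell program under Notch, was at 1.85, 2.36 and 3.41 CPM with sgControl and 14.2, 20.9 and 18.95 CPM with sgCTCF, a 7.10-fold difference without overlap (adjusted P = 4.21e-05, limma). Hes1, a direct Notch target that encodes a repressor, was at 1.85, 3.25 and 1.95 CPM and 22, 11.97 and 11.6 CPM, or 6.47-fold apart without overlap (adjusted P = 3.81e-05, limma). Both were well below Phase 1 cells, which were at 148 ± 36.05 CPM for Tcf7 and 85.9 ± 25.6 CPM for Hes1 (SD, n = 3), although the experiments were processed as separate tables. Against sgCbfb the direct log2 fold changes were 4.23 for Tcf7 (adjusted P = 1.41e-09, limma) and 1.08 for Hes1 (adjusted P = 0.0178). Against sgMed12, in which Hes1 was at a mean of 15.7 CPM and Tcf7 at 3.03 CPM, they were 2.33 (6.12e-05) and -0.03 (0.954).

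Lef1, the relative of TCF1, was at 0.263, 0 and 0 CPM with sgControl and 5.64, 7.24 and 10.4 CPM with sgCTCF. That is at least 9.66-fold higher and passed the test (adjusted P = 6.47e-06, limma), but its mean was under the 10 CPM the call needs, and in Phase 1 cells it was at 2.74 ± 2.83 CPM (SD, n = 3).

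Others of the 17 encode surface and adhesion proteins. Cdh1, E-cadherin, was at 8.97, 31.6 and 14.6 CPM with sgControl and 114, 104 and 100.5 CPM with sgCTCF (adjusted P = 6.27e-06, limma). Ccr2, a chemokine receptor, was at 17.1, 39.9 and 13.9 CPM and 130.1, 144 and 95.9 CPM (adjusted P = 3.13e-06, limma). In both the second sgControl library was the highest control and was still below every sgCTCF library. Cd247, the ζ chain of the T-cell receptor, was at 6.59, 3.54 and 3.16 CPM and 16.9, 13.9 and 12.2 CPM (adjusted P = 0.00682, limma), without overlap, and differed from sgMed12 by 0.44 (adjusted P = 0.423, limma), which did not pass. Ccr2 was above its Phase 1 level of 65.03 ± 2.43 CPM (SD, n = 3), whereas Cdh1 and Cd247 were below theirs, at 205 ± 35.6 and 40.6 ± 16.98 CPM.

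The other 12 were Cnn2, Ston2, Rnase6, Cd74, Cd163l1, Pmepa1, Basp1, Arl4c, Pld4, Cysltr1, Slfn2 and Ly6a, with log2 ratios between 1.08 and 2.58. Of these, 5 lost the call when 1 library was left out. Arl4c had a log2 ratio of 0.99 and Ston2 an adjusted P of 0.00475 in limma without the first sgCTCF library, the mean of Ston2 then being under 10 CPM. Cysltr1 had a log2 ratio of 0.94 without the second sgCTCF library, and Cd74 one of 0.89 without the first sgControl library. Ly6a, at 8.70, 31.01 and 8.04 CPM with sgControl and 32.2, 38.2 and 33.3 CPM with sgCTCF, had log2 ratios of 0.82 and 0.80 without the first or the third sgControl library and an adjusted P of 0.072 in limma without the second sgCTCF library. The 2 that were lower were Mlkl and Ffar2, the latter a receptor for short fatty acids at 12.7, 16.8 and 12.9 CPM with sgControl and 4.29, 6.13 and 6.01 CPM with sgCTCF (adjusted P = 0.00214, limma).

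Several landmark genes of the early T lineage did not pass with sgCTCF. Bcl11b, the commitment factor, was at 57.5, 66.8 and 41.2 CPM with sgControl and 91.2, 90.8 and 67.95 CPM with sgCTCF (adjusted P = 0.101, limma), against 438 ± 72.2 CPM in Phase 1 cells. Gata3, Lck, Thy1 and Notch1 had log2 fold changes of 0.05, -0.06, 0.00 and 0.11 with adjusted P values of 0.662 or more in limma. Il2ra, which encodes CD25, was at 1.32, 0 and 1.22 CPM with sgControl and 2.68, 1.67 and 1.85 CPM with sgCTCF (adjusted P = 0.224, limma). All sgCTCF values of Il2ra were above the controls, but they rest on few reads, since 3 reads are near 0.8 CPM. At this depth the test cannot decide whether Il2ra changed. By flow cytometry, the study reports that LPs with Ctcf deleted gave rise to CD25+ cells in the absence of Notch stimulation. Cd3g and Notch3 did not pass the test (adjusted P = 0.532 and 0.3, limma), and Dtx1 and Cd3e had no read in any of the 6 libraries. The study names Notch3 and Hes1 as Notch-activated genes induced in LPs by deletion of Cbfb or Ctcf, from averages of the replicates. For Notch3 the test used here did not show this with sgCTCF. Kit, the receptor for SCF, was at 30.2 ± 3.26 CPM in LPs and 133 ± 47.1 CPM in Phase 1 cells of the first experiment (SD, n = 3) and was lower with sgCTCF, at 35.6, 43.1 and 32.9 CPM with sgControl and 13.95, 18.1 and 27.96 CPM with sgCTCF (adjusted P = 0.00323, limma).

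Over the whole T-cell receptor and T-signature list, 2 of 29 tested genes were called higher (6.90%, against 1.81% of all tested genes) and none lower, 8 were higher at an adjusted P under 0.05 (27.6%, against 6.13%) and 1 lower (3.45%, against 4.20%), and the median was 0.47. Cd2, an adhesion receptor of T and NK cells, was at 12.7, 15.4 and 19.5 CPM with sgControl and 55.6, 61.8 and 55.5 CPM with sgCTCF (adjusted P = 9.19e-06, limma), and in the first experiment at 21.8 ± 4.42 CPM in LPs and 9.85 ± 2.23 CPM in Phase 1 cells (SD, n = 3). Lat, Cd7, Ctla4, Trdc and Trgc4 passed without being called, and Trbc2 was lower, though constant-region genes have near copies that could share their reads. When 1 of the 6 libraries was left out, 3 to 6 members were higher. A shorter list holds Notch-regulated T-signature genes that the study names, mostly from the Cbfb comparison of its first experiment. In part, as for Hes1 and Notch3, they were named with these libraries, so the list is not independent evidence. Of its 17 tested genes 2 were called higher (Tcf7 and Hes1, 11.8%, against 1.81%) and none lower, with a median of 0.52. At an adjusted P under 0.05 alone 4 were higher (23.5%, against 6.13%) and 1 lower (5.88%, against 4.20%).

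**Figure D4:**
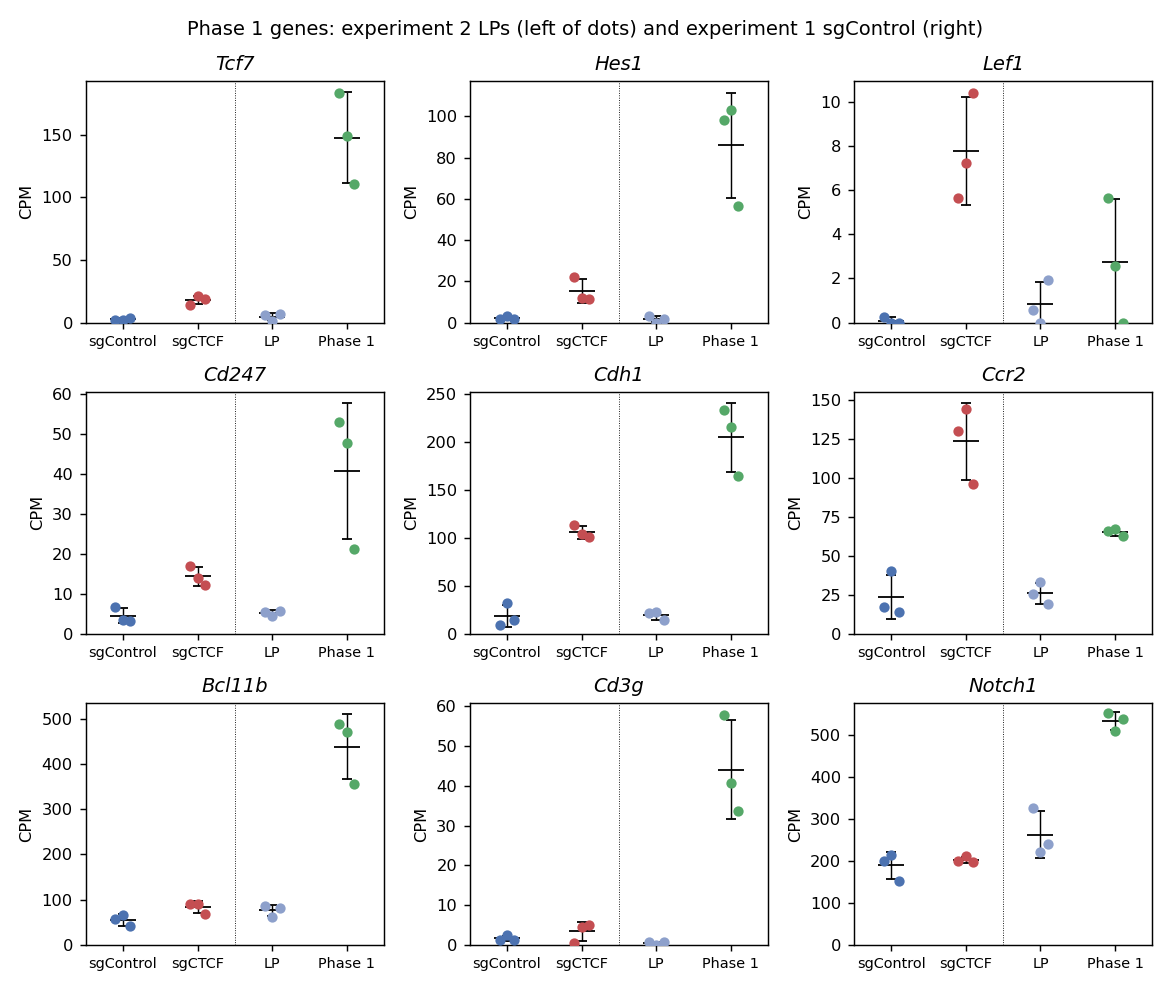
CPM in each library (points), with the group mean and SD as lines, for 9 genes in sgControl and sgCTCF LPs of the second experiment and in sgControl LPs and Phase 1 cells of the first, which is a separate table. Tcf7, Hes1, Cd247, Cdh1 and Ccr2 are higher with sgCTCF than with sgControl, and of these Ccr2 alone exceeds its Phase 1 level, while the sgCTCF and sgControl points of Cd3g and Notch1 overlap.

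Of 25 tested genes of the B lineage and of lymphoid priming 5 were called higher (20%, against 1.81% of all tested genes) and none lower (median 0.17). At an adjusted P under 0.05 alone 7 were higher (28%, against 6.13%) and 3 lower (12%, against 4.20%). Blnk, the adaptor of the pre-B-cell receptor, was at 0.527, 0.886 and 0.487 CPM with sgControl and 10.7, 18.7 and 11.8 CPM with sgCTCF, or at least 17.1-fold higher (adjusted P = 1.26e-06, limma). Foxo1, which drives Il7r and Rag expression in early B cells, was at 4.22, 4.72 and 5.36 CPM and 30.6, 25.6 and 21.03 CPM (adjusted P = 4.71e-06, limma). No library of one group reached into the other for either gene. Pax5, which fixes B-cell identity, was at 6.59, 9.15 and 9.98 CPM and 21.7, 24.8 and 19.4 CPM (adjusted P = 0.0064, limma). Irf4 and Spib, which act in B-cell and plasmacytoid differentiation, were at means of 4.54 and 8.87 CPM with sgControl and 17.7 and 26.6 CPM with sgCTCF. All 5 calls held when any 1 of the 6 libraries was left out.

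The other tested members of the B-lineage list were not called. Cd79a had no read in any of the 6 libraries. Rag1 was at 11.6, 12.1 and 5.36 CPM with sgControl and 6.17, 5.01 and 5.08 CPM with sgCTCF (adjusted P = 0.112, limma), and Il7r at 142, 207 and 145 CPM and 202, 215 and 197 CPM (adjusted P = 0.146, limma). Neither passed. Ebf1 mRNA was read in this Ebf1-deficient line, at 308, 287 and 233 CPM with sgControl and 175, 182 and 208 CPM with sgCTCF, and was lower with sgCTCF (adjusted P = 0.0192, limma). Compared with sgCbfb directly, Pax5 and Spib were 3.60 and 4.36 higher on the log2 scale (adjusted P = 1.24e-09 and 1.06e-10, limma).

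The progenitor markers expressed by LPs were partly lower. Cd34 was at 226, 247 and 243 CPM with sgControl and 139.5, 103 and 129.9 CPM with sgCTCF, with no overlap (adjusted P = 3.07e-06, limma). Flt3 was lower by less (-0.35 ± 0.10, adjusted P = 0.0214, limma), as was Kit. None of the 10 tested progenitor markers was called by limma, edgeR or DESeq2, and 8 had an unadjusted P under 0.05 in limma. Spi1, which encodes PU.1, did not pass (-0.24 ± 0.13, adjusted P = 0.315, limma). Among 24 tested myeloid genes 3 were called higher (12.5%, against 1.81%), Ly6c2, Lgals3 and Fcgr3. None was called lower. At an adjusted P under 0.05 alone 4 were higher (16.7%, against 6.13%) and 3 lower (12.5%, against 4.20%). Ly6c2, which encodes a Ly6C protein of monocytes, was at 8.97, 14.2 and 10.5 CPM with sgControl and 68.4, 77.4 and 94.3 CPM with sgCTCF (adjusted P = 2.03e-08, limma), and at a mean of 270.4 CPM with sgCbfb, although its near copy Ly6c1 could share these reads. Fcgr3 had a log2 ratio of 0.89 without the first sgCTCF library. Mpo, the granule enzyme of granulocyte progenitors, and F13a1, a monocyte gene, were lower, so the list did not move as one.

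Of 35 tested interferon-stimulated genes 2 were called higher (5.71%, against 1.81% of all tested genes) and 6 were higher at an adjusted P under 0.05 (17.1%, against 6.13%). Ifih1, a sensor of double-stranded RNA, was 1 of the 2 called, at 10.02, 9.45 and 9.01 CPM with sgControl and 35.2, 30.1 and 25.9 CPM with sgCTCF (adjusted P = 2.21e-05, limma). The list median was 0.28 with sgCTCF and 2.89 with sgCbfb. Of 23 tested cytokine receptors 7 were higher at an adjusted P under 0.05 (30.4%, against 6.13%) and 2 lower (8.70%, against 4.20% of all tested genes). Tgfbr2 and Ifngr2 were called higher (8.70%, against 1.81%), at 1.10 ± 0.25 and 1.04 ± 0.20, and Ifngr2 had a log2 ratio of 0.91 without the third sgControl library and 0.98 without the first sgCTCF library. Among 20 tested immediate early genes Fos was the only call (5%, against 1.81%). At an adjusted P under 0.05, 4 of them were higher (20%, against 6.13%) and 1 lower (5%, against 4.20%). Fos was at 3.96, 3.54 and 3.65 CPM with sgControl and 50.4, 12.5 and 6.24 CPM with sgCTCF, and lost the call without the first sgCTCF library (adjusted P = 0.187, limma) and without the third sgControl library (0.0539).

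Gene groups for which CTCF is well known were read against the 2.43% of all tested genes called in either direction, a share at which lists of this size would hold few calls or none. Of 24 tested genes for CTCF, cohesin and loop factors none was called, and 12 had an unadjusted P under 0.05 in limma. At an adjusted P under 0.05, 2 were higher (8.33%, against 6.13% of all tested genes) and 5 lower (20.8%, against 4.20%). The 5 include Ctcf, the targeted gene itself. The log2 fold change was negative for 17 of the 24, with a median of -0.19. Stag1, a cohesin subunit, was higher at 109.5, 94.2 and 89.4 CPM with sgControl and 170.1, 178 and 166 CPM with sgCTCF (adjusted P = 1.71e-05, limma), and Rad21, the cohesin cleavage subunit, did not pass (-0.18 ± 0.09, adjusted P = 0.257). In the HoxA cluster all 9 tested genes had a positive log2 fold change (median 0.27, against 0.70 with sgMed12) and none was called (5 at an unadjusted P under 0.05). Hoxa11, at 1.58, 0.590 and 0.487 CPM with sgControl and 9.39, 5.85 and 5.32 CPM with sgCTCF, passed the test (adjusted P = 2.71e-04, limma) but was under 10 CPM, while Hoxa9, far more abundant, was at 729, 808 and 702 CPM and 837, 796 and 763 CPM. Of 19 tested imprinted genes none was called (4 at an unadjusted P under 0.05). In the lists for JAK-STAT feedback, MHC class I presentation and G1 cyclins, CDKs and inhibitors none was called. At an adjusted P under 0.05, 3 of 15, 2 of 14 and 3 of 19 tested genes were higher (20%, 14.3% and 15.8%, against 6.13%). At the same limit 0, 1 and 2 were lower (0%, 7.14% and 10.5%, against 4.20%). In either direction 4, 8 and 5 had an unadjusted P under 0.05 in limma. edgeR and DESeq2 also made no call in any of these lists.

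Since CTCF is known to insulate neighbouring genes from each other, the positions of the called genes were described with the GENCODE M21 annotation (GRCm38). Of the 238 genes called higher, 40 (16.8%) had a called-higher gene as the nearest tested gene on either side, against 3.58% of all tested genes. With starts at most 200 kb apart it was 28 of 207 (13.5%), against 2.74%. Of the 82 genes called lower, 5 (6.10%) had a called-lower neighbour, against 1.28%. In the opposite direction 5 of the 82 (6.10%) had a called-higher neighbour, against 3.58%, and 4 of the 238 (1.68%) a called-lower one, against 1.28%. Pairs with overlapping exons were left out. Some pairs are neighbouring paralogues that could share reads, as Mt1 and Mt2 are.

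The 4 neighbourhoods of large changes that were drawn differed. Beside Ptpn5, Tmem86a, whose start is 83.1 kb away, was at 18.5, 17.4 and 11.7 CPM with sgControl and 43.2, 31.2 and 39.3 CPM with sgCTCF (adjusted P = 0.0043, limma), and Spty2d1, 125.3 kb away, was at 45.9, 54.9 and 56.98 CPM and 123, 108 and 101 CPM (adjusted P = 1.18e-05). All sgCTCF values were the higher ones for both, and Spty2d1 had a log2 ratio of 0.99 without the first library of either group, and so lost the call. Ptpn5 itself changed by far more than these neighbours. Saal1, 423 kb away, was called lower.

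Around Olfr523 the genes on both sides included called ones. Cd163l1, with its start 45.0 kb to the right, was called higher at 16.1, 21.9 and 11.2 CPM with sgControl and 49.9, 67.7 and 54.3 CPM with sgCTCF (adjusted P = 2.32e-05, limma), and Paox, 57.4 kb to the left, went from a mean of 57.0 to 126 CPM. Sprn, 18.3 kb to the left, had no read with sgControl and was at 3.22, 3.62 and 5.32 CPM with sgCTCF, which passed the test (adjusted P = 6.43e-05, limma) under the 10 CPM limit. Mtg1 and Echs1, which lie between Paox and Olfr523, were not called. Beside Nsg2, Cpeb4 (128.3 kb) was at 8.70, 7.97 and 7.79 CPM and 17.7, 20.05 and 16.9 CPM (adjusted P = 0.00663, limma). Irf4 was paired with Dusp22 (89.2 kb), which was at 13.7, 16.8 and 18.02 CPM and 42.1, 39.5 and 38.6 CPM (adjusted P = 2.56e-04, limma), and Cyp4f18 with Tpm4 (125.3 kb), a tropomyosin at 156, 201 and 169 CPM and 552, 578 and 561 CPM (adjusted P = 2.38e-09). En1, Fscn1 and Atp1b1 had no called neighbour on either side, though Xcl1, a chemokine gene whose start is 477.2 kb from that of Atp1b1, went from a mean of 0.487 to 6.24 CPM and passed the test (adjusted P = 2.60e-04, limma) under the 10 CPM limit.

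**Figure D5:**
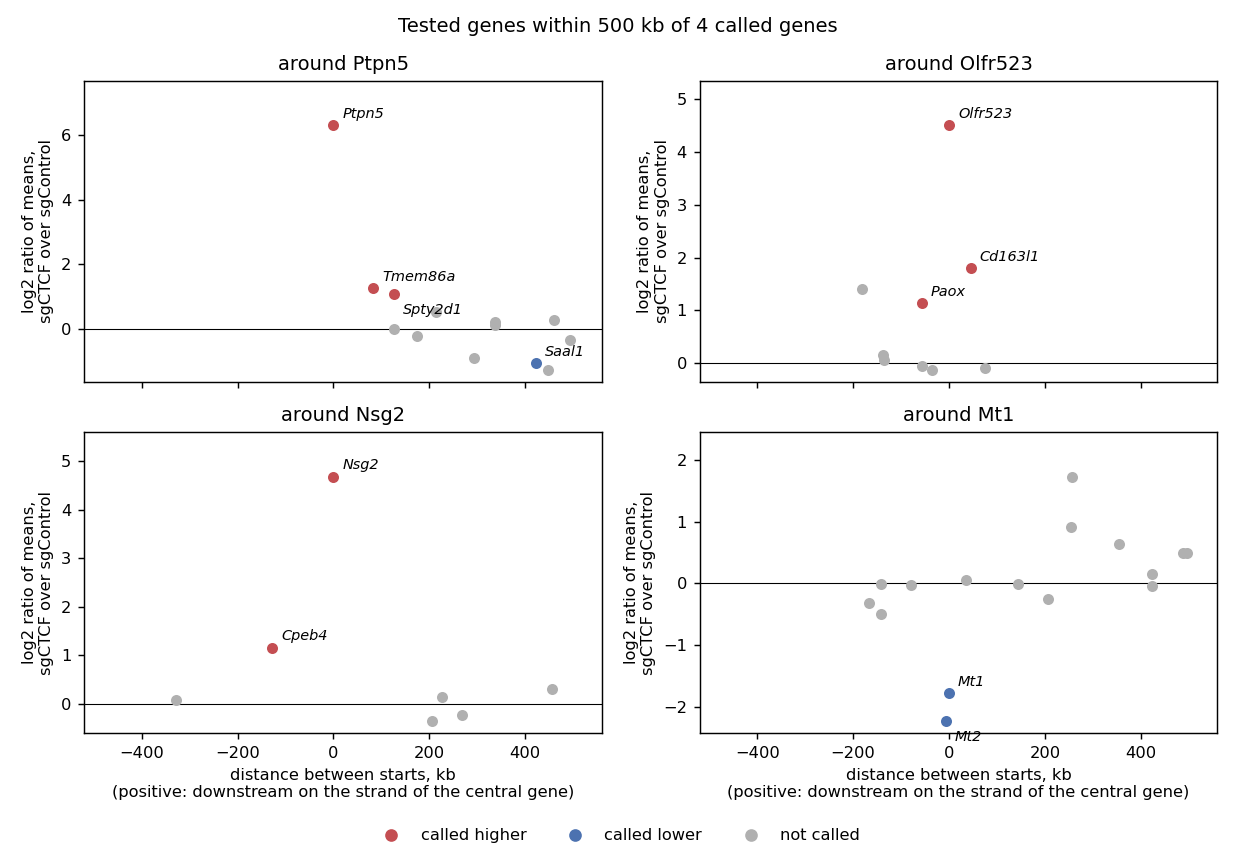
Log2 ratio of the sgCTCF over the sgControl mean (y axis) against the distance in kb between gene starts (x axis) for tested genes over 1 CPM within 500 kb of Ptpn5, Olfr523, Nsg2 and Mt1, with called genes in colour. Uncalled genes lie closer to Olfr523 than the called Paox and closer to Ptpn5 than the called Saal1, the called Cpeb4 is the nearest gene drawn beside Nsg2, Mt2 lies next to Mt1, and Sprn is not drawn because it had no sgControl read.

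The core letters of the CTCF motif, CC, any 3 bases and then AGGGGGC, were searched on both strands in RefSeq promoters of GRCm38.p6, from 250 bases before to 50 bases after a start. They were present in 2.26% of the 11923 promoters of tested genes, and a looser form that includes them, in which any 2 bases may follow AG before GGC, in 12.8%. A promoter was at hand for 61 of the 82 genes called lower and 182 of the 238 called higher, less than 80%, so the shares of the sets were not compared. The letters were found for 5 of these 61 and 6 of these 182 genes. Counted by gene in the same way, they were found for 256 of the 9370 tested genes with a promoter at hand (2.73%). The matches are shown for 3 genes called lower and for 1 called higher, chosen after their values were seen, as examples of what the letters look like beside a gene that changed. Each is given 5′ to 3′ on the strand of the gene, with the matched letters in capitals.

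Fam199x: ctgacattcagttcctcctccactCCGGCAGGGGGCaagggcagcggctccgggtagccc
Rab12: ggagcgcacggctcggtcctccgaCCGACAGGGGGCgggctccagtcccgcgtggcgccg
Zfp777: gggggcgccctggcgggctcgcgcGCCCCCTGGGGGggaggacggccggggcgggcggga
Rufy3: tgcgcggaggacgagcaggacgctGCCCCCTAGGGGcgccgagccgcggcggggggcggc

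The stretch of Fam199x is chrX:137049474-137049533 (plus strand), that of Rab12 chr17:66519746-66519805 (minus), that of Zfp777 chr6:48047894-48047953 (minus) and that of Rufy3 chr5:88564872-88564931 (plus). None overlaps an annotated exon. In Fam199x and Rab12 the motif reads along the gene, and in Zfp777 and Rufy3 it reads on the opposite strand, so that its reverse complement is printed. Fam199x was at 31.9, 33.4 and 31.9 CPM with sgControl and 11.3, 8.91 and 11.6 CPM with sgCTCF (adjusted P = 3.95e-05, limma). Rab12, a small GTPase of membrane traffic, was at 47.2, 43.7 and 46.8 CPM and 19.1, 25.1 and 20.8 CPM (adjusted P = 2.64e-05). Both were lower in every sgCTCF library than in any control. Zfp777, a zinc finger gene, was at 33.5, 34.6 and 39.4 CPM and 19.6, 15 and 18.3 CPM (adjusted P = 2.46e-04, limma), also without overlap. Rufy3 was at 49.6, 48.7 and 43.1 CPM and 142, 136 and 116 CPM (adjusted P = 6.47e-06), with all sgCTCF libraries higher. A match is a description of the letters, and no binding was measured in these libraries.

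Several marker lists of other cells were at low levels in both groups. The 12 markers of OP9 stroma summed to between 7.55 and 43.0 CPM with sgControl and between 21.3 and 40.5 CPM with sgCTCF, 7 were tested and none was called by limma, edgeR or DESeq2 (4 at an unadjusted P under 0.05), and Col3a1, Dcn and Lum had no read. Their median log2 fold change was 1.02, 6 of the 7 were positive, and 3 were higher at an adjusted P under 0.05 in limma with a replicate block, with sgControl and sgCTCF alone in the fit, or without the first sgControl library. Their part in the results was not tested. Of the T-lineage markers Cd8a and Cd3e, and of the macrophage markers C1qa and C1qb, no read was found, and all 4 mast cell markers were at 0. The 10 macrophage and monocyte markers together were not absent. They summed to between 76.5 and 91.6 CPM with sgControl and between 59.6 and 84.4 CPM with sgCTCF. Of the 7 tested, none was called and 1 was lower at an adjusted P under 0.05 (14.3%, against 4.20% of all tested genes). Granulocyte markers summed to between 7.30 and 13.7 CPM with sgControl and between 3.34 and 5.32 CPM with sgCTCF (median log2 fold change -1.03 over the 2 tested). B-lineage markers were not low, with sums of 244 to 315 CPM and 198 to 228 CPM, most of it the Ebf1 reads given above. The T-lineage marker sum was between 61.8 and 94.8 CPM with sgControl and between 117 and 137 CPM with sgCTCF, with Tcf7 the only one called. Of the lymphoid progenitor markers, Flt3, Il7r, Cd34 and Notch1 were read in every library of both groups. Over the 10 tested markers of that list the median log2 fold change was -0.41. At an adjusted P under 0.05, 3 of them were lower (30%, against 4.20% of all tested genes) and none higher.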

How the data were processed

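Total RNA of LPs and Phase 1 cells was made into QuantSeq 3′ libraries, and per the labels the authors trimmed reads with fastp and aligned them to mm10 with STAR (versions not given in the sources used here). The deposited tables are named TPM, but each value is a whole multiple of 1 step per library and all libraries sum to the same total, so the deposited values are CPM of reads on genes without length scaling. Whole reads were recovered from 100.0% of values. Positions are from GENCODE M21 (GRCm38).

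Genes at 1 CPM or more in at least 3 of the 12 libraries of the second experiment were tested (13177). The test was limma 3.58.1 (R 4.3.3) on log2(CPM + 1), with the 4 groups in a single fit, variances moderated along a trend and Benjamini-Hochberg adjustment over all tested genes. Fold changes on this scale understate changes of low genes. A call needed an adjusted P under 0.05, a log2 ratio of group means beyond 1 and more than 10 CPM on average in 1 of the groups, the limits given in the study's methods. The log2 fold change is the limma value and the log2 ratio that of the group means. Where every library of a group had 3 reads or fewer, folds are bounds set with 3 reads per library (0.803 CPM with sgControl, 0.778 CPM with sgCTCF). Intervals of this kind cover counting error only. A permutation test of 3 against 3 libraries cannot go below an exact P of 0.1, so none was used. Groups share sgControl libraries where sgCbfb or sgMed12 is set beside sgCTCF. Named genes were Ctcf, the 12 largest rises and 12 largest falls with reads in every library and no overlap, the called genes at the floor in a group, called or abundant members of the lists, genes the study names for Notch regulation, and neighbours. The members and lists were chosen with earlier results of these data known. Lists are described by counts and medians, without a test. Alternatives were another pseudocount, filter, scaling, variance model or threshold, a replicate block, edgeR 4.0.16 and DESeq2 1.42.0 on the recovered reads, and leaving out each library. The fits were tested on simulated data. Some listed genes enter the counts and medians but are not reported here by name.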

Additional observations from a re-analysis of the deposited data

How the results depend on the processing

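The counts of called genes, 238 higher and 82 lower, moved by over 1.5 times under 2 of the 26 alternatives. With a mean over 20 CPM required, 152 genes were called higher and 46 lower, and with no fold threshold 585 higher and 499 lower, the cause being the stricter or looser rule itself. Under the same 2 alternatives the genes higher in Phase 1 gave 11 and 34 called higher and 0 and 10 called lower, in place of 17 and 2. The 0 is a limma count under a limit that the low genes Mlkl and Ffar2 cannot meet, and over all tested genes 3008 had an unadjusted P under 0.05. Leaving out 1 library gave 200 to 265 called higher and 76 to 96 called lower, and 16 to 20 higher and 2 to 4 lower among the genes higher in Phase 1. edgeR called 245 higher and 83 lower, DESeq2 243 and 83, a fit without variance moderation 183 and 61, and the alternative chosen after seeing the data (mitochondrial genes and the most abundant gene left out of the total) 291 and 74. Replicate numbers are shared by the groups, but same-numbered libraries deviated together only weakly (r = 0.063, 0.086 and 0.105), so they were not taken as pairs, although each library correlated best with its own number, which is a hint from the data and not from the design. A fit with the replicate block called 241 higher and 83 lower. Of 106 called genes that are named or listed, 46 were called under every alternative, 60 lost the call in at least 1 and 32 when 1 library was left out, and 0 changed direction. The medians of the lists had the same sign with median-of-ratios scaling, edgeR and DESeq2, except that of the metal response list, which was -0.0119 and turned to 0.0302 with edgeR, 0.0293 with DESeq2 and 0.019 with the alternative chosen after seeing the data. The median log2 fold change of the 8222 genes with a mean over 10 CPM was -0.0335, and -0.00839 with median-of-ratios scaling. Depth limits the low genes most, since a floor of 3 reads is near 0.8 CPM and a gene without reads may still be expressed under it.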

Other observations

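Among genes outside the lists, several that rose with sgCTCF shared a place or a kind. Ddt, D-dopachrome tautomerase, and its neighbour Gstt3, a glutathione transferase, have starts 8 kb apart and were at means of 51.6 and 5.87 CPM with sgControl and 175 and 13.1 CPM with sgCTCF, though the call of Gstt3 was lost without the first sgControl, first sgCTCF or second sgCTCF library (adjusted P = 0.174, 0.138 and 0.115, limma). Bank1, a B-cell scaffold protein, went from 6.42 to 33.9 CPM, and Ppp3ca, the calcineurin catalytic subunit with its start 344.1 kb from that of Bank1, from 238 to 509 CPM. Adck1 and Nrxn3, a synaptic adhesion gene, lie 362.3 kb apart and went from 12.8 to 66.0 CPM and from 6.26 to 27.5 CPM. Gabarapl1, an autophagy gene, went from 36.1 to 101 CPM. These genes were chosen after their values were seen, and no explanation is offered.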
